A study of Mus musculus with 2 samples.

Results

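The 10 genes described here serve MHC class I antigen presentation. They comprise *B2m*, *H2-K1*, *H2-D1*, *Tap1*, *Tap2*, *Tapbp*, *Psmb8*, *Psmb9*, *Psmb10* and *Nlrc5*. They were named as class I chains, *B2m*, peptide loading genes, immunoproteasome subunits and *Nlrc5*, and their difference between the libraries was already known when they were named. Tags from both libraries were matched to mouse transcripts with at most 1 mismatch, and the sense tags belonging to 1 gene only were summed for each gene. All 10 had at least 20 tags over both libraries, as did 10243 of the 14450 genes listed. Since the choice rested on values of this comparison, the differences are given as a description with no test.

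GC-1spg descends from a mouse aged 10 days. Its type B spermatogonia received the plasmid pSV3-neo. The source of GC-2spd (ts) was a mouse aged 6 weeks, whose spermatocytes received the SV40 large T antigen. Both lines grew in DMEM with bicarbonate at 1.5 g/L and serum (FBS) at 10%, each is a transformed culture and not a germ cell taken from a testis, and the labels give neither the mouse strain nor a treatment with interferon. Digital gene expression (DGE) tag profiling yielded 5072149 clean tags from 1 library of GC-1spg and 4726808 from 1 library of GC-2spd (ts), so no difference has a replicate check, and a change in the number of cells with a transcript cannot be told apart from a change per cell. The study treats both lines as male germ cells. Of 22 germ cell markers, *Uchl1*, *Id4* and *Spo11* were listed, with 369 tags in GC-1spg against 73 in GC-2spd (ts), while *Ddx4*, *Dazl*, *Kit* and *Sycp3* were among the 19 listed in neither. Of 12 fibroblast markers, 10 were listed, with summed levels of 3881 and 3054 TPM (the count over all clean tags, times 1000000), although in GC-2spd (ts) 4 of the 10 were past 2-fold higher and 2 lower. Over all genes with at least 20 tags, 19.1% were at least 2-fold higher and 12.8% at least 2-fold lower. *Col1a1* held most of the sum of GC-1spg with 10465 tags against 2425, and *Dcn* had 710 and 2. These were the 2 lower markers. The 4 higher were *Vim* with 984 and 2897 tags, *Col5a2* with 562 and 1931, *Col3a1* with 50 and 120 and *Pdgfrb* with 0 and 84. *Thy1* and *Lum* were listed in neither library.

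MHC class I molecules display peptides from inside the cell to cytotoxic T cells. The proteasome cuts cytosolic proteins, the TAP transporter carries the peptides into the endoplasmic reticulum, and tapasin holds empty class I molecules at the transporter until a peptide is bound. Each class I molecule is a polymorphic heavy chain paired with the invariant light chain β2-microglobulin. Interferon induces most genes of the pathway, and the coactivator NLRC5 drives their transcription. Germ cells of the testis are known for low class I display.

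The result for the class I chains turns on which sequence each line carries at the tag. *Nla*III cuts at CATG, and a tag is CATG with the 17 bases that follow. The tags of the CATG site nearest the 3′ end of *B2m* are shown first, because they differ between the lines. They lie in the 3′ UTR in exon 4, where the reference tag spans chr2:122152779-122152799 of GRCm38 on the plus strand. The capitals mark a run of adenines whose length differs.
B2m with a run of 5, found in GC-1spg: catgttttcAAAAAttggaaa
B2m with a run of 6, the reference and found in GC-2spd (ts): catgttttcAAAAAAttggaa
B2m with a run of 7, found in GC-2spd (ts): catgttttcAAAAAAAttgga

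The heavy chain genes *H2-K1* and *H2-D1* share their main tag. GC-1spg instead listed a tag that starts 11 bases further on, where the reference *H2-K1* sequence has AATG and the tag has CATG. This is the substitution A1C, with the reference base first and positions counted from 1 at the 5′ end. The capitals mark these 4 bases. The shared tag lies in the 3′ UTR in exon 8 of both genes, at chr17:33996094-33996114 on the minus strand in *H2-K1* and at chr17:35267414-35267434 on the plus strand in *H2-D1*.
Tag shared by H2-K1 and H2-D1, mostly in GC-2spd (ts): CATGgattgagaatgcttaga
Tag at the gained site, in GC-1spg: CATGcttagaggttttgtttg
Reference H2-K1 at the gained site: AATGcttagaggttttgtttg

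Other tags of these genes also came in pairs that differ by 1 base and exclude each other between the libraries. A pair counted where each form had at least 10 copies in 1 library and was unlisted in the other. The capital marks the base that differs, written as the base of the GC-2spd (ts) tag, the position from the 5′ end and the base of the GC-1spg tag.
B2m antisense strand in GC-1spg (T12C): catgcataaaaCatttaaagt
B2m antisense strand in GC-2spd (ts): catgcataaaaTatttaaagt
H2-Q7 in GC-1spg (C15T): catgctgccccgagTtccagc
H2-Q7 in GC-2spd (ts): catgctgccccgagCtccagc

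The *B2m* pair had 25 copies in GC-1spg against 37 in GC-2spd (ts), and the *H2-Q7* pair had 26 and 80. In the 3′ UTR of *H2-K1* and *H2-D1*, the GC-1spg tag catgctaccctgacctgcaGc, with 10 copies, differed by A20G from the *H2-K1* tag and by G14C from the *H2-D1* tag of GC-2spd (ts), which had 23 and 10 copies. In each pair GC-2spd (ts) had the reference form and GC-1spg a form with 1 mismatch. Over all genes, 161 such pairs were found in 158 genes, counting pairs with both tags in 1 gene, and the reference form was in GC-2spd (ts) in 161 and in GC-1spg in 0. The genome GRCm38 is that of the strain C57BL/6J. Whether the lines come from different strains was not tested. A tag that departs from the reference by an inserted or deleted base, or whose CATG is new, is left out of the reference counts, so the values of *B2m* and the heavy chains are given both ways.

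With reference tags alone, 9 of the 10 genes were 2-fold or more higher in GC-2spd (ts), 0 were 2-fold or more lower, and *Psmb10* was neither. Among the 10243 genes with at least 20 tags, 1958, or 19.1%, were at least 2-fold higher and 1315, or 12.8%, at least 2-fold lower. Nothing can be read from the gap to this background, as the genes were chosen on this comparison. When the libraries were scaled by TMM in edgeR instead, every log2 ratio fell by 0.17, and 1575 genes were higher and 1620 lower, with 8 of the 10 class I genes higher. The median log2 ratio was 2.31 over the 10 genes, with *H2-D1* at its bound, and 0.19 over all genes. By the thresholds of the study, a false discovery rate on the reads of 0.001 or less and a 2-fold difference, the same 9 genes were higher and 0 lower. Over all 14450 genes, 1684, or 11.7%, were higher by these thresholds and 1133, or 7.84%, lower. With variant tags at both kinds of site added, 8 of the 10 were higher and *H2-K1* was lower. The main tag that *H2-K1* shares with *H2-D1* counts for neither gene here. The reference tags of the 10 genes together came to 186 TPM in GC-1spg against 2886 TPM in GC-2spd (ts), of which *B2m* made up 5.91 and 2559 TPM. With the variant tags these totals were 1202 and 3006 TPM, and the ratio dropped from 15.5-fold to 2.50-fold. The tags shared by *H2-K1* and *H2-D1*, 31 in GC-1spg against 3799 in GC-2spd (ts), are in none of these totals. The gained-site tag found in GC-1spg in place of the main shared tag is in the variant total, so 2.50-fold counts only 1 side of that exchange.

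**Figure D1:**
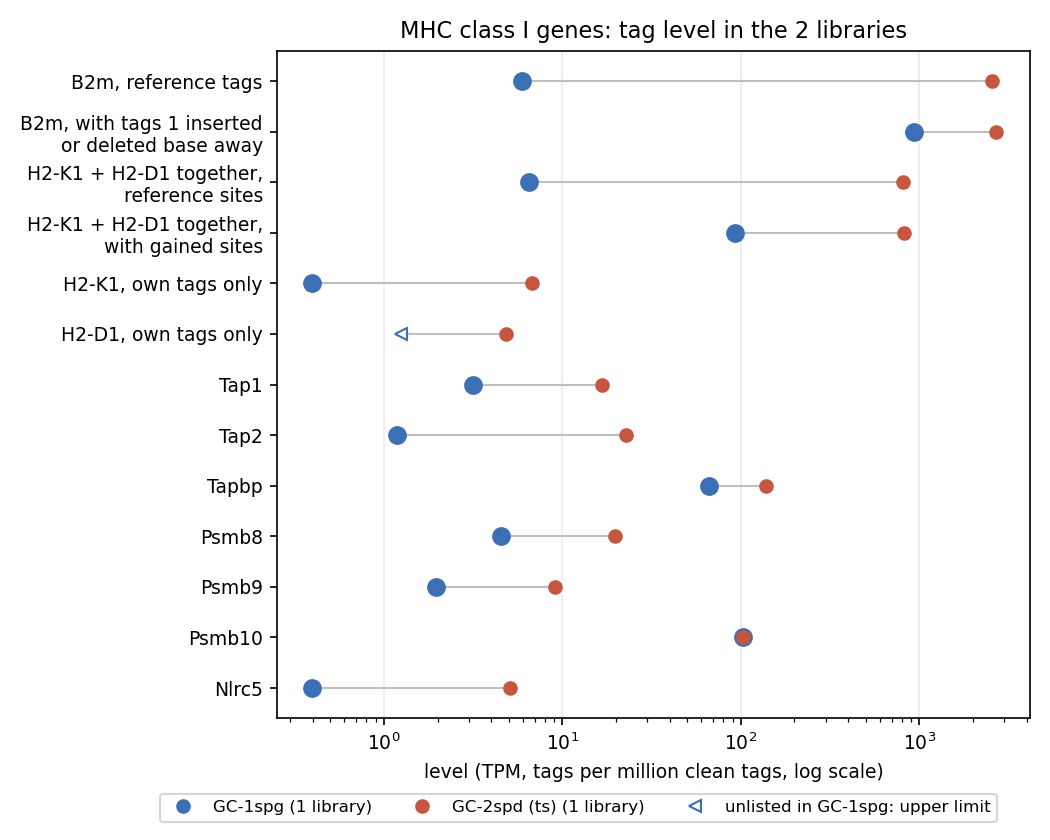
Level of the 10 class I genes in TPM (log scale) in the GC-1spg library (blue) and the GC-2spd (ts) library (red), 1 library each, with no error bars; the open triangle is the upper limit of 1.24 TPM for *H2-D1*, unlisted in GC-1spg. With variant tags, *B2m* moves from 5.91 to 936 TPM in GC-1spg and *H2-K1* and *H2-D1* together from 6.51 to 92.9 TPM, and the red points hardly move.

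**Figure D2:**
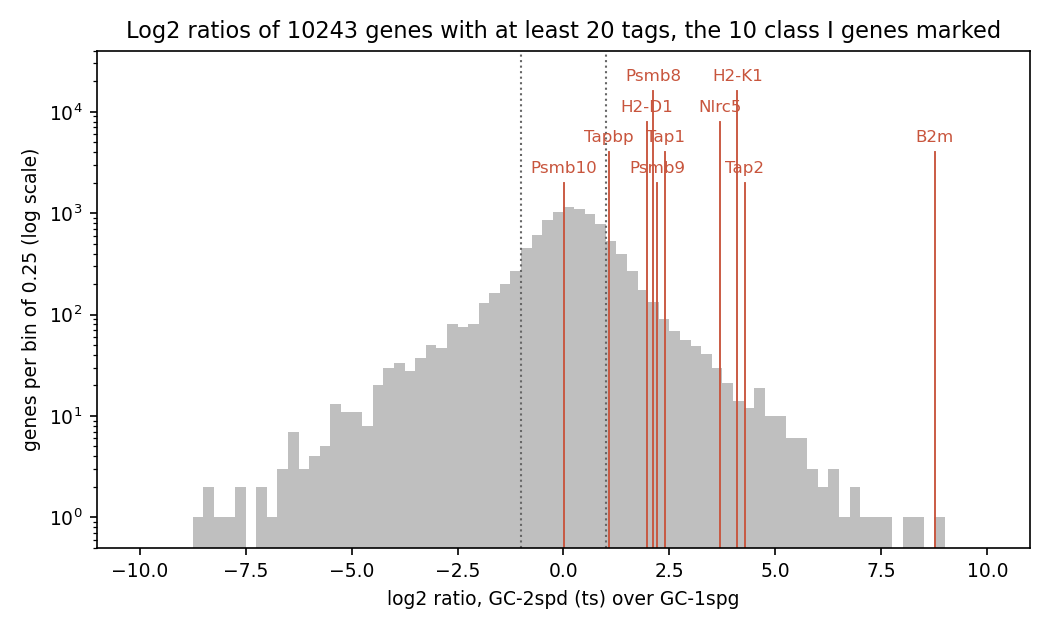
Histogram of the log2 ratio of GC-2spd (ts) over GC-1spg (x axis) for 10243 genes with at least 20 reference tags, with the number of genes per bin on a log scale (y axis), dotted lines at 2-fold and red lines at the class I genes. *Psmb10* stands at 0.02, *Tapbp* at 1.06, just past 2-fold, *H2-D1* at its bound and *B2m* at 8.76, where 0 genes had a larger ratio. With tags 1 inserted or deleted base away added, which are not drawn, *B2m* had a log2 ratio of 1.52.

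*B2m* encodes β2-microglobulin, without which class I heavy chains do not reach the cell surface. The gene spans chr2:122147686-122153083 (GRCm38, plus strand). Its reference tags numbered 30 in GC-1spg against 12095 in GC-2spd (ts) (5.91 and 2559 TPM), a 433-fold difference (exact 95% interval 303 to 641). By reference tags it ranked 7979 of the 14450 genes in GC-1spg against 4 in GC-2spd (ts). With variant tags counted for every gene it ranked 46 and 4 of 14812. A transcript gives tags irrespective of its length. Intervals are Clopper-Pearson, conditional on the sum of both counts, and cover counting error only, because PCR copies are not told apart from separate molecules.

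The tag with a run of 5 adenines had 4711 copies in GC-1spg against 6 in GC-2spd (ts). The reference tag with a run of 6 had 9 copies in GC-1spg against 11908 in GC-2spd (ts). The form with a run of 7 was unlisted in GC-1spg and had 547 copies in GC-2spd (ts), and a run of 8 had 0 and 9. Each library was thus dominated by a different form, which took 99.8% of these tags (GC-1spg) or 95.5% (GC-2spd (ts)).

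Summed over all runs, this site had 4720 tags in GC-1spg against 12470 in GC-2spd (ts), a 2.83-fold difference (2.74 to 2.93). The next CATG site of *B2m* upstream, with the tag CATGatgctctgaagattcat across the junction of exons 3 and 4 in the 3′ UTR, had 19 and 45 tags. It has no adenine run, its sequence was the same in both lines, and it gave a 2.54-fold difference (1.46 to 4.60), whose interval holds the value of the run tags together and not that of the reference tags. With every tag 1 inserted or deleted base away added, *B2m* had 4746 and 12650 tags, or 936 and 2676 TPM, a 2.86-fold difference (2.77 to 2.96). *B2m* was therefore higher in GC-2spd (ts) under both counts, and the size fell from 433-fold to 2.86-fold.

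**Figure D3:**
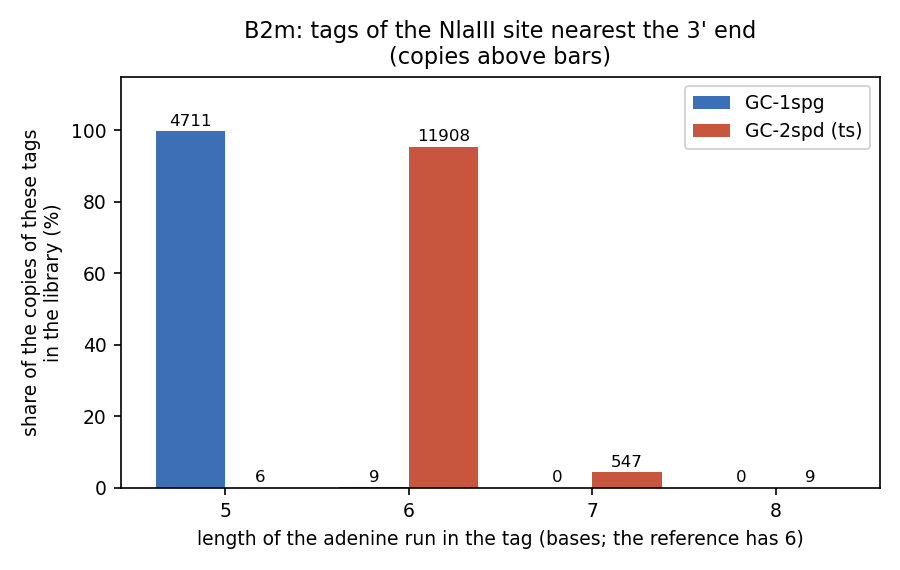
Share of the *B2m* tags at the *Nla*III site nearest the 3′ end (y axis, %) by the length of their adenine run (x axis, bases), in the GC-1spg library (blue) and the GC-2spd (ts) library (red), with copies above the bars. A run of 5 made up 99.8% in GC-1spg and a run of 6 made up 95.5% in GC-2spd (ts).

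*H2-K1* and *H2-D1* encode the classical class I heavy chains, which bind the peptide and present it to CD8 T cells. *H2-K1* spans chr17:33996017-34000347 (minus strand) and *H2-D1* chr17:35262730-35267499 (plus strand). Tags found in 1 gene only were few. *H2-K1* had 2 tags in GC-1spg against 32 in GC-2spd (ts), a 17.2-fold difference (4.38 to 148), and its 2 tags in GC-1spg came from a site in exon 2 that was unlisted in GC-2spd (ts). *H2-D1* had 0 and 23 tags, at least 3.92-fold higher. An unlisted gene may still have had single copies, which were removed before deposition, so such a bound is set against a Poisson limit (one-sided, 95%) that allows 1 unseen copy for each tag the other library lists.

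The tag shared by both genes had 21 copies in GC-1spg against 3767 in GC-2spd (ts). All tags of *H2-K1* and *H2-D1* at reference sites, counted once, came to 33 and 3854, or 6.51 and 815 TPM, a 125-fold difference (89.1 to 182). The tag at the gained site had 438 copies in GC-1spg and was unlisted in GC-2spd (ts), where it was at least 86.0-fold lower. With gained sites the pair had 471 and 3864 tags, or 92.9 and 817 TPM, an 8.80-fold difference (7.998 to 9.71). By the tags matched here, the heavy chains thus stayed higher in GC-2spd (ts) as a pair. *H2-D1* still had 0 tags of its own in GC-1spg, against 31 in GC-2spd (ts). Whether tags of GC-1spg alleles further from the reference were missed was not tested. The 92.9 TPM may thus be too low and the 8.80-fold difference too large.

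Taken singly, *H2-K1* changed direction with the gained site, to 440 tags in GC-1spg against 34 in GC-2spd (ts). The gained-site tag can be placed only in *H2-K1*, while the shared tag of GC-2spd (ts) counts for neither gene. The closest stretch of *H2-D1* differed from this tag by 4 bases. The alleles of GC-1spg are not in the reference, so neither heavy chain can be counted apart from the other in that line. For all class I *H2* genes together, tags at reference sites came to 253 and 4687, a 19.9-fold difference (17.5 to 22.6), and with variant tags to 691 and 4697, a 7.29-fold difference (6.73 to 7.91). GC-1spg alleles further from the reference may be missing here too, so these differences may be too large.

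*Tap1* and *Tap2* encode the subunits of the peptide transporter. They lie in a cluster with *Psmb9* and *Psmb8* that covers 34335 bases of chromosome 17, from 34181987 to 34216321. *Tap1* was counted by the single tag CATGcacacacaaacctggtt in the 3′ UTR in exon 12, at chr17:34197056-34197076 on the plus strand. It had 16 copies in GC-1spg against 79 in GC-2spd (ts) (3.15 and 16.7 TPM), a 5.30-fold difference (3.07 to 9.72).

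*Tap2* had 6 tags in GC-1spg against 108 in GC-2spd (ts) (1.18 and 22.8 TPM), a 19.3-fold difference (8.59 to 53.8). The libraries listed different sites of this gene. In GC-2spd (ts), 101 of the 108 tags were CATGaggcctccagaccctga at the site nearest the 3′ end, at chr17:34216089-34216109 on the plus strand, which spans the end of the coding sequence in exon 12 and was unlisted in GC-1spg. All 6 tags in GC-1spg were CATGaccagctcagagacggc at the next site upstream, with the substitution G15A from the reference, and that site was unlisted in GC-2spd (ts). No tag 1 inserted or deleted base away from *Tap2* changed its counts. Whether GC-1spg keeps the CATG nearest the 3′ end was not tested, so the ratio rests on sites that do not match between the lines.

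*Tapbp* encodes tapasin and spans chr17:33915899-33929292 (plus strand). It had 337 tags in GC-1spg against 656 in GC-2spd (ts) (66.4 and 139 TPM), a 2.09-fold difference (1.83 to 2.39) that stood just past the threshold. Among the 10 genes it offered the most sites, 7, each with its reference tag listed in both libraries. The site nearest the 3′ end, with the tag CATGtgtctccctcgcggact, had 205 and 451 tags, a 2.36-fold difference (1.997 to 2.80), and the fifth had 85 and 152, a 1.92-fold difference (1.46 to 2.53). The second had 21 and 17 tags, a ratio of 0.869 (0.430 to 1.73), and its interval does not overlap that of the site nearest the 3′ end. The other 4 sites had 2 to 16 tags per library, with intervals that include a ratio of 1.

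**Figure D4:**
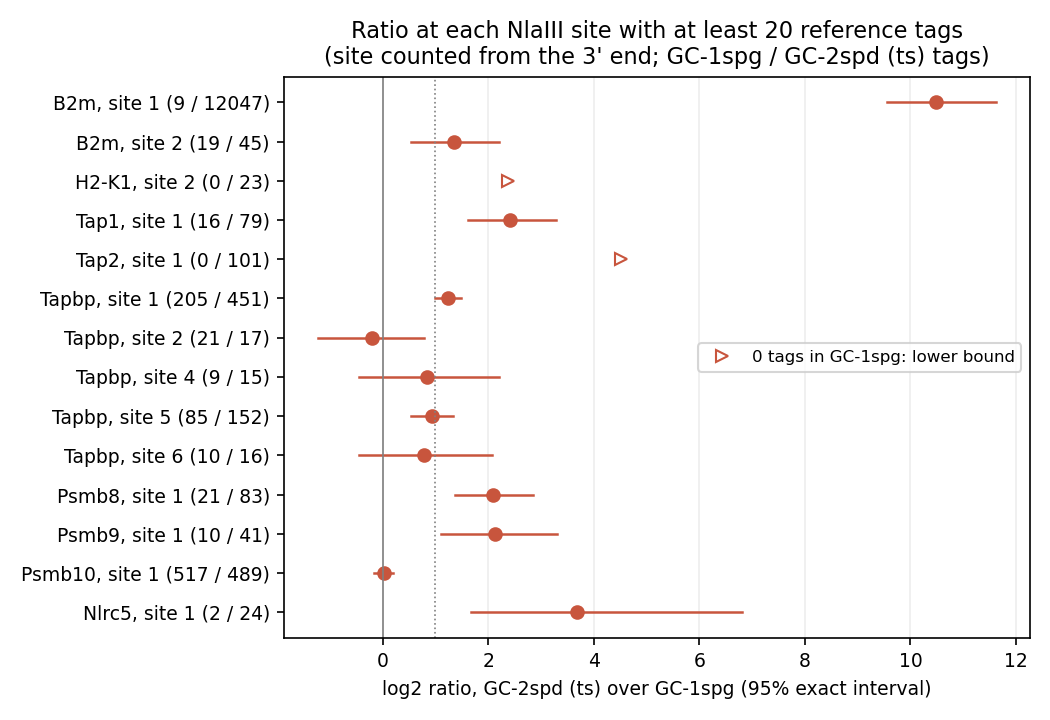
Log2 ratio of GC-2spd (ts) over GC-1spg (x axis) with its exact 95% interval at each *Nla*III site with at least 20 reference tags (y axis, with the tags of GC-1spg and GC-2spd (ts) in brackets); open triangles are lower bounds for sites with 0 tags in GC-1spg. The adenine run sets *B2m* site 1 (9 and 12047 tags) apart from *B2m* site 2 (19 and 45 tags), and *Psmb10* lies at 0.

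The immunoproteasome subunits replace catalytic subunits of the constitutive proteasome and alter the peptides it makes. *Psmb8*, at chr17:34197721-34201454 (plus strand), had 23 tags in GC-1spg against 93 in GC-2spd (ts) (4.53 and 19.7 TPM), a 4.34-fold difference (2.73 to 7.18). Its main tag CATGaaggaagacggttgggt, in the coding sequence of exon 6, had 21 and 83 copies. *Psmb9*, at chr17:34181987-34187764 (minus strand), had 10 and 43 tags, or 1.97 and 9.10 TPM, a 4.61-fold difference (2.28 to 10.3). The intervals of *Psmb8*, *Psmb9* and *Tap1*, neighbours within the cluster, overlapped. That of *Tap2*, also in the cluster, was 8.59 to 53.8, above that of *Psmb8*. It overlapped those of *Psmb9* and *Tap1*.

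*Psmb10*, which encodes the third inducible subunit, did not follow the others. It lies outside the MHC, at chr8:105935735-105938444 (minus strand). It had 519 tags in GC-1spg against 489 in GC-2spd (ts) (102 and 103 TPM), a ratio of 1.01 (0.892 to 1.15), and its tag CATGgaggtggaatgaagtgg had 507 and 479 copies. The same sequence was thus the main tag in both lines, and a 2-fold difference lies outside the counting interval. The constitutive counterparts had ratios below 1. *Psmb5*, replaced by PSMB8, had 2342 and 2102 tags, a ratio of 0.963 (0.908 to 1.02). *Psmb6*, replaced by PSMB9, had 429 and 297, a ratio of 0.743 (0.639 to 0.863). *Psmb7*, replaced by PSMB10, had 209 and 188, a ratio of 0.965 (0.788 to 1.18). None of these 3 was past 2-fold.

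*Nlrc5* encodes the class I transactivator and spans chr8:94434356-94527272 (plus strand). It was counted by the single tag CATGgtgttttgctttgtttt in the 3′ UTR in exon 49, at chr8:94527169-94527189. The tag had 2 copies in GC-1spg against 24 in GC-2spd (ts) (0.394 and 5.08 TPM), a 12.9-fold difference (3.20 to 112). The wide interval reflects the 2 copies, which is the smallest number listed in either library.

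Other genes of the pathway were read from lists of class I genes, loading factors, peptide supply and transcription with interferon signalling. Over these 4 lists, 62 of 82 genes were listed and 54 had at least 20 tags, of which 13 were past 2-fold higher in GC-2spd (ts), 3 past 2-fold lower and 38 neither, with a median log2 ratio of 0.26 against 0.19 over all genes. The background under the same rule was 19.1% higher and 12.8% lower.

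Of 29 other class I genes, 11 were listed and 6 had at least 20 tags, 4 of them higher and 0 lower, with a median log2 ratio of 1.76. *H2-Q4* had 14 tags in GC-1spg against 110 in GC-2spd (ts), an 8.43-fold difference (4.82 to 15.9). *H2-Q6* had 19 and 74 and *H2-Q7* 26 and 91. *Fcgrt*, the heavy chain of the neonatal Fc receptor that also pairs with β2-microglobulin, had 76 and 216 tags, a 3.05-fold difference (2.34 to 4.02). *H2-K2* had 55 and 39 tags and *H2-T22* 12 and 15, and neither was past 2-fold. The *H2-Q* genes are close copies of one another, so tags lost to shared sequence or to alleles of GC-1spg are not in these counts.

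Of 10 loading factors, 9 had at least 20 tags, and *Calr* alone was past 2-fold, with a median log2 ratio of 0.22. *Calr* encodes calreticulin, a chaperone of the loading complex, and had 2845 and 7244 tags, or 561 and 1533 TPM, a 2.73-fold difference (2.62 to 2.85). *Canx*, the chaperone calnexin, had 3819 and 4157 tags, a 1.17-fold difference (1.12 to 1.22), and *Hspa5*, the luminal chaperone BiP, had 3029 and 2124, a ratio of 0.752 (0.712 to 0.796). Of 14 genes of peptide supply, 12 had at least 20 tags, with a median log2 ratio of -0.05. *Thop1*, a cytosolic peptidase, was higher with 98 and 220 tags. *Psmd14*, a proteasome lid subunit, was lower with only 16 and 4, a ratio of 0.268 (0.0653 to 0.832). *Psme3*, a proteasome activator subunit, had 1232 and 1239 tags, and the aminopeptidase gene *Lap3* had 646 and 399, neither past 2-fold. *Psme1*, a subunit of the inducible activator, had 3 and 0 tags, and *Psme2* was listed in neither library. Tags that also match another gene or a pseudogene are not counted. Whether *Psme1* and *Psme2* lost tags this way was not tested, so these counts do not show that they were silent.

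Of 29 genes of transcription and interferon signalling, 27 had at least 20 tags, 7 of them higher, 2 lower and 18 neither, with a median log2 ratio of 0.55. *Irf7*, an interferon-induced transcription factor, had 16 tags in GC-1spg against 316 in GC-2spd (ts), a 21.2-fold difference (12.8 to 37.5). *Irf9* and *Stat2*, which act together downstream of type I interferon receptors, had 70 and 206 tags and 60 and 133 tags. The kinase *Jak1* had 181 and 426 tags, while *Tyk2* was lower with 28 and 12, a ratio of 0.460 (0.213 to 0.934). *Irf1*, an activator of class I genes, went the other way, with 372 tags in GC-1spg against 141 in GC-2spd (ts), a 2.46-fold lower level. Of the RFX, CREB and NF-Y factors that bind class I and class II promoters together, *Rfx5* had 24 and 63 tags, *Rfxap* 76 and 154, and *Nfyc*, a subunit of the CCAAT-binding factor NF-Y, 121 and 272, and these 3 were past 2-fold higher. Not past 2-fold were 4 others, with 37 and 40 tags for *Rfxank*, 133 and 220 for *Nfya*, 227 and 229 for *Nfyb* and 79 and 71 for *Creb1*. The 3 genes of this list with the most tags were not past 2-fold. These were *Jak2* with 941 and 598 tags, *Atf1* with 506 and 689, and *Rela*, the NF-κB subunit p65, with 621 and 416. *Ciita*, the class II counterpart of *Nlrc5*, was listed in neither library.

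**Figure D5:**
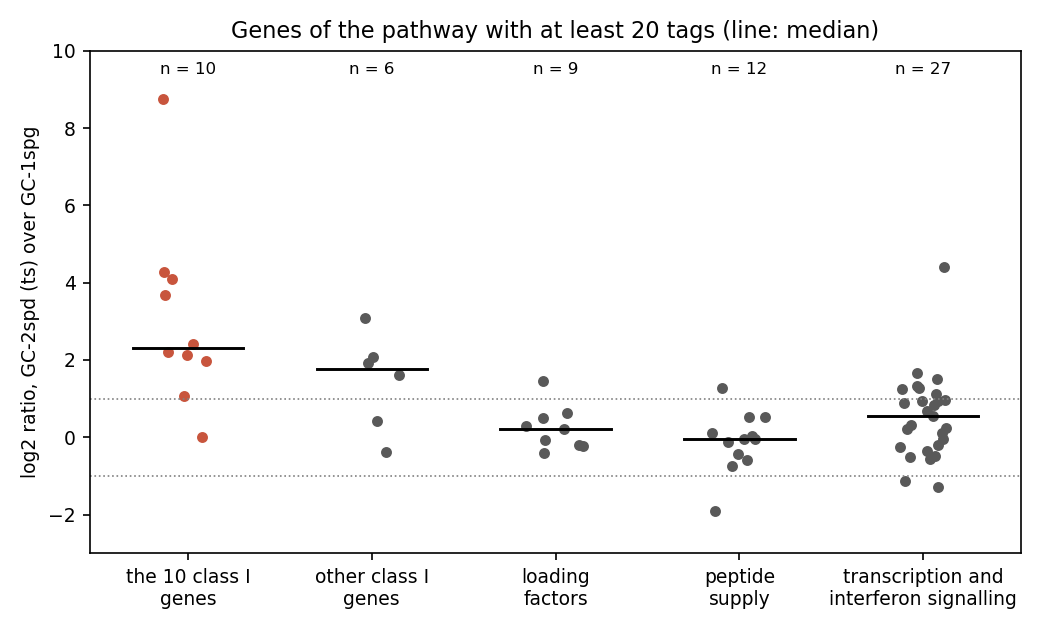
Log2 ratio of GC-2spd (ts) over GC-1spg (y axis) for genes with at least 20 reference tags, in the 10 class I genes (red, with *H2-D1* at its bound) and in 4 pathway lists (grey), with black lines at the medians and dotted lines at 2-fold. The medians were 2.31, 1.76, 0.22, -0.05 and 0.55 from left to right.

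Leukocytes and antigen-presenting cells express class I genes at high levels, so their markers were read in both libraries. Of 17 leukocyte markers, 3 were listed, *Cd14*, *Cd79a* and *Coro1a*, with 9 tags in GC-1spg against 12 in GC-2spd (ts), and *Ptprc*, *Cd68* and *Cd3e* were listed in neither. Of 10 genes of the class II pathway, 7 were listed, with 27 and 59 tags, and 3 had at least 20 tags, 2 of them higher and 0 lower. The shares over all genes with at least 20 tags were 19.1% higher and 12.8% lower. *H2-Ab1* had 0 and 22 tags, at least 4.98-fold higher, and *H2-DMa*, a chain of the class II peptide exchanger, had 8 and 15, a 2.01-fold difference (0.801 to 5.48) whose interval holds 1. *Cd74*, the invariant chain, had 19 and 9. These are reference tags, and whether the 0 of *H2-Ab1* comes from an allele of GC-1spg without them was not tested.

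The genes around the class I loci were read beside all genes. Between *Tapbp* and *H2-D1*, on chromosome 17 from 33915899 to 35267499, 42 genes outside the lists had at least 20 tags. Of these, 4 were past 2-fold higher in GC-2spd (ts), or 9.52%, and 2 at least 2-fold lower, or 4.76%. Over all genes with at least 20 tags the shares were 19.1% and 12.8%. The median log2 ratio was 0.10, against 0.19 over all genes. The listed genes of this stretch were left out, so the 42 do not stand for the whole of it.

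Antisense tags, left out of the counts above, were listed for all 10 genes in at least 1 library. *B2m* had 107 in GC-1spg against 369 in GC-2spd (ts), a 3.70-fold difference. The tag CATGctgacgactgaagcgac at the start of the gene had 43 and 280 copies, a 6.99-fold difference (5.06 to 9.87), and CATGcttaactctgcaggcgt in the coding sequence had 36 and 37. *Tapbp* had 186 and 281, a 1.62-fold difference. These *B2m* tags do not hold the adenine run.

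The promoters, from 250 bases before to 50 after the start of each gene, were read from RefSeq for the build GRCm38.p6. They were matched for 8 of the 10 genes, all but *Tap2* and *Nlrc5*. Motifs were searched by their letters on both strands, and a match is a description of letters and not of a bound site. The stretches shown are those that genes of the set share, with the motif in capitals.
H2-K1, ISRE core, strand opposite to the gene, chr17:34000429-34000437: ggtgcaGAAGTGAAActgtgg
H2-D1, ISRE core, strand opposite to the gene, chr17:35262944-35262952: ggtgcaGAAGTGAAActgagg
H2-K1 and H2-D1, κB letters, strand of the gene, chr17:34000448-34000457 and chr17:35262924-35262933: gggctgGGGATTCCCCatctcc
Psmb9 and Tap1, CCAAT, strand of Tap1, chr17:34187334-34187338: ggctttCCAATcagcgg
Psmb9 and Tap1, CRE core, strand of Tap1, chr17:34187470-34187474: gacaggTGACGacagag

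The ISRE core, searched as GAANNGAAA, was in the promoters of *H2-K1* and *H2-D1* and in at least 1 promoter of 8.68% of all 27025 genes. The κB letters, GGGA and CC with any 4 bases between them, were in *H2-K1*, *H2-D1* and *B2m*, and in 22.9% of all genes. CCAAT was in 6 of the 8 genes and in 41.1% of all, and TGACG, the core of a CRE, was in 5 of the 8 and in 23.05%. *Psmb9* and *Tap1* are read in opposite directions from a common stretch, so both of their matches are the same letters counted from each side. *Psmb8* held the GAS letters TTCNNNGAA, found in 9.55% of all genes. *Psmb10* and *Tapbp* lacked the ISRE, κB, GAS and TGACG letters in this window, which says nothing of the factors that act on them.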

How the data were processed

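DGE tags were measured in 1 library of each cell line. The authors removed adaptor, low quality and single copy tags, and deposited the tag sequences with their raw counts (copy numbers) and TPM, the count over the library total times 1000000. Which tool the study matched its tags with was not given in the sources used here, and neither was its version. The counts were taken for this work and the deposited TPM was used only as a check of the scale. Tags were matched to all CATG+17 tags of the 141767 transcripts of GENCODE release M21 (GRCm38), exact matches first, then 1 mismatch. Sense counts of unambiguous tags were added up by gene and divided by all clean tags, so that a copy is worth 0.197 TPM (GC-1spg) or 0.212 TPM (GC-2spd (ts)). edgeR's quasi-likelihood test needs replicates and could not be fitted, so genes were called by fold alone, or by the Audic-Claverie test on the reads with Benjamini-Hochberg adjustment, which compares 2 libraries and not the lines. A gene at 0 was set to 0.01 TPM under that test. TMM came from edgeR 4.0.16 and size factors from DESeq2 1.42.0 in R 4.3.3, and the rest from Python 3.11.15 with scipy 1.17.1. Matching, intervals and calls were tested on simulated data.

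The genes, the lists and the alternatives were chosen with earlier results of these data known. All 10 class I genes were named in full. From each of the 4 pathway lists the genes past 2-fold and the 3 with the most tags were named, with *Psmb5*, *Psmb6* and *Psmb7*. *H2-K2*, *H2-T22*, *Psme1*, *Psme2*, *Ciita*, *Rfxank*, *Nfya*, *Nfyb*, *Creb1* and *H2-DMa* were named after their values were seen. So were the fibroblast markers *Col1a1*, *Dcn*, *Vim*, *Col5a2*, *Col3a1*, *Pdgfrb*, *Thy1* and *Lum*. The alternatives were other matching rules, sites, transcripts and strands, inserted or deleted bases, other scalings, 0.5 tags added, other minimums, the thresholds of the study and a class I total. Gained CATG sites, alone and with inserted or deleted bases, were added after seeing the data.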

Additional observations from a re-analysis of the deposited data

Results flagged for a closer look

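The following tags matched no reference transcript with at most 1 mismatch and are outside the main counts, and each stands above the level in the other library. The *B2m* tag with a run of 5 adenines had 4711 copies in GC-1spg, against 6 in GC-2spd (ts). The *B2m* tag with a run of 7 adenines had 547 copies in GC-2spd (ts) and was unlisted in GC-1spg. The *H2-K1* tag at a gained CATG site had 438 copies in GC-1spg and was unlisted in GC-2spd (ts). With 1 library per line, no control library sets a background for these copies.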

How the results depend on the processing

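The class I genes past 2-fold higher in GC-2spd (ts) numbered 9 and were 7 to 9 under the alternatives that kept the minimum of 20 tags, and 4 with a minimum of 100 tags, which leaves fewer genes to count. A minimum of 100 tags also gave 1178 higher and 623 lower genes over all, and 1 lower gene in the pathway lists, where the thresholds of the study gave 1 as well, against 3. Gained CATG sites, alone or with inserted or deleted bases, gave 1 class I gene lower, *H2-K1*, whose log2 ratio turned from 4.10 to -3.59 under both. There the gained-site tag counts for *H2-K1*, and the tag shared with *H2-D1* for neither gene. With both tags counted, the pair was 8.80-fold higher in GC-2spd (ts). The log2 ratio of *B2m* was 1.52 with inserted or deleted bases, 6.61 with sense and antisense tags summed and 10.49 at the site nearest the 3′ end. That setting kept the last CATG site of each transcript, so a gene can keep several, and gave 7 higher class I genes. In it *H2-K1* was below 2-fold, with 24 and 39 tags and a log2 ratio of 0.80. These are more than its 2 and 32 main tags, as fewer reference tags leave more tags with 1 gene. *H2-D1*, with 13 tags, missed the minimum. The tag shared by both genes, with 21 and 3767 copies, still counted for neither. *Tapbp* kept its direction under all 13 alternatives and was below 2-fold under 4 of them, with a log2 ratio of 0.89 under TMM. *Psmb10* was within 2-fold under all 13, from -0.16 under TMM to 0.02. TMM moved the share of higher genes among all calls from 59.8% to 49.3%, and DESeq2 size factors to 49.97%. No paired analysis was possible because each line has 1 library. The depth limits *Nlrc5*, which had 2 tags in GC-1spg, while the main tag of *H2-K1* and *H2-D1*, shared or changed, is outside their own counts.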
